A study of Rattus norvegicus with 10 samples.

Results

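Glycolysis enzymes were examined in fetal rat kidney as 10 listed genes: Hk1, Hk2, Gpi, Pfkm, Aldoa, Gapdh, Pgk1, Eno1, Pkm and Ldha. A probe set, the group of oligonucleotides that measures one transcript on the array, was taken when its single gene symbol in the platform annotation was one of these genes, and the array's own control probe sets were left out. This gave 11 probe sets of 8 genes, of 15923 probe sets and 10411 singly named genes in all. Outside the controls, Gapdh and Pkm had only probe sets that carried a second gene symbol, and neither is reported. The study asked how the kidney of a growth-restricted fetus differs when the mother carries excess insulin. Per the labels, the hyperinsulinemic group was 5 fetal kidney samples (replicates 6 to 10) from Wistar rats of 200 to 280 g given a 2 mm piece of slow-release insulin implant under the skin before mating and again after it. The normal group was 5 fetal kidney samples (replicates 1 to 5) from mothers without that treatment. All kidneys were taken on day 22 of gestation, and all mothers ate a regular diet. Neither litter, mother nor fetal sex is given per sample in the labels, so the p-values speak only for the scatter among these arrays, part of which may be technical.

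Glycolysis splits glucose into pyruvate in the cytosol and yields ATP without oxygen, and lactate dehydrogenase then converts pyruvate to lactate and restores the NAD+ that the pathway consumes. The hexokinases trap glucose as its phosphate, phosphofructokinase carries out the committed step, and aldolase, phosphoglycerate kinase and enolase act further down. In the adult kidney the proximal tubule makes glucose and burns mainly fatty acids, whereas the inner medulla depends on glycolysis; in the mouse, nephron progenitors of the fetal kidney use glycolysis heavily. Several of these genes are known targets of the hypoxia-inducible factors, which bind core letters of which ACGTG is one form, and insulin is known to induce Hk2 in muscle and fat.

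Every array gave 1 MAS5 signal per probe set, a background-corrected brightness that is linear and scaled per array, with a median over probe sets of 130.0 to 136.9 across arrays. Of the 12 listed kidney markers 11 were on the array and all 11 were tested, among them Lrp2 (2159 to 2524), Umod (328 to 632), Aqp2 (1015 to 1957) and Wt1 (722 to 913), and 0 of them passed the test between the groups. Their summed signal was 11963 to 12791 on hyperinsulinemic arrays and 11076.5 to 12058 on normal arrays. Aqp2 averaged 1756 in the hyperinsulinemic and 1299 in the normal group, and 6 of the 11 markers had a higher hyperinsulinemic mean. The tested set comprised 9601 probe sets, those reaching the 40th percentile of their array on at least 5 of the 10 arrays, and 1 of them, or 0.0104%, had a limma adjusted p under 0.05. The 3' over 5' signal of the Gapdh control probes, a measure of RNA integrity, was 1.09 ± 0.0649 on hyperinsulinemic arrays and 1.07 ± 0.0505 on normal arrays (SD, n = 5 each). The summed signal of 9 liver markers was 640 to 4997 on hyperinsulinemic arrays and 450 to 1933 on normal arrays, and hyperinsulinemic replicate 6 had the most Alb, at 1742. Xist, the transcript made from the inactive X chromosome of female cells, separated the groups, at 42.4 to 70.5 on the hyperinsulinemic arrays and 0.8 to 2 on the normal arrays. In every comparison below, the treatment of the mother and a difference in fetal sex therefore cannot be told apart.

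No difference between the groups was detected in any of the 8 glycolysis enzymes with a probe set. Intervals were computed for the tested probe sets only. They rest on the scatter among these arrays and cover treatment and fetal sex together. Of the 11 probe sets 9 passed the filter, and they cover 7 genes; the probe set of Hk2 and 1 of the 3 for Pgk1 did not. In the 9 tested probe sets 0 had an adjusted p under 0.05 (limma, smallest adjusted p = 0.941), and 0 had an unadjusted p under 0.05, where 5.36% of all tested probe sets did. The hyperinsulinemic and normal arrays overlapped for every one of the 11, where 1.04% of all tested probe sets did not overlap. With the brightest tested probe set of each gene, 4 genes were higher and 3 lower, with a median log2 difference (hyperinsulinemic minus normal) of 0.03, beside 0.003 over all 7267 tested genes. The sign of that median was not stable: it was -0.0087 with the mean of all tested probe sets of a gene and -2.683e-06 with quantile normalization. With no filter, which adds Hk2 to the genes, it was -0.0019. It was -0.0013 without normal replicate 4, -0.011 without hyperinsulinemic replicate 7 and at most 0.05, without normal replicate 3. The median size of the log2 difference, whatever its sign, was 0.06 for the 7 genes and 0.06 for all tested genes. The 95% intervals of the 9 differences reached at the lowest to a fold ratio of 0.799, for a Pfkm probe set, and at the highest to 1.30, for Hk1.

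**Figure D1:**
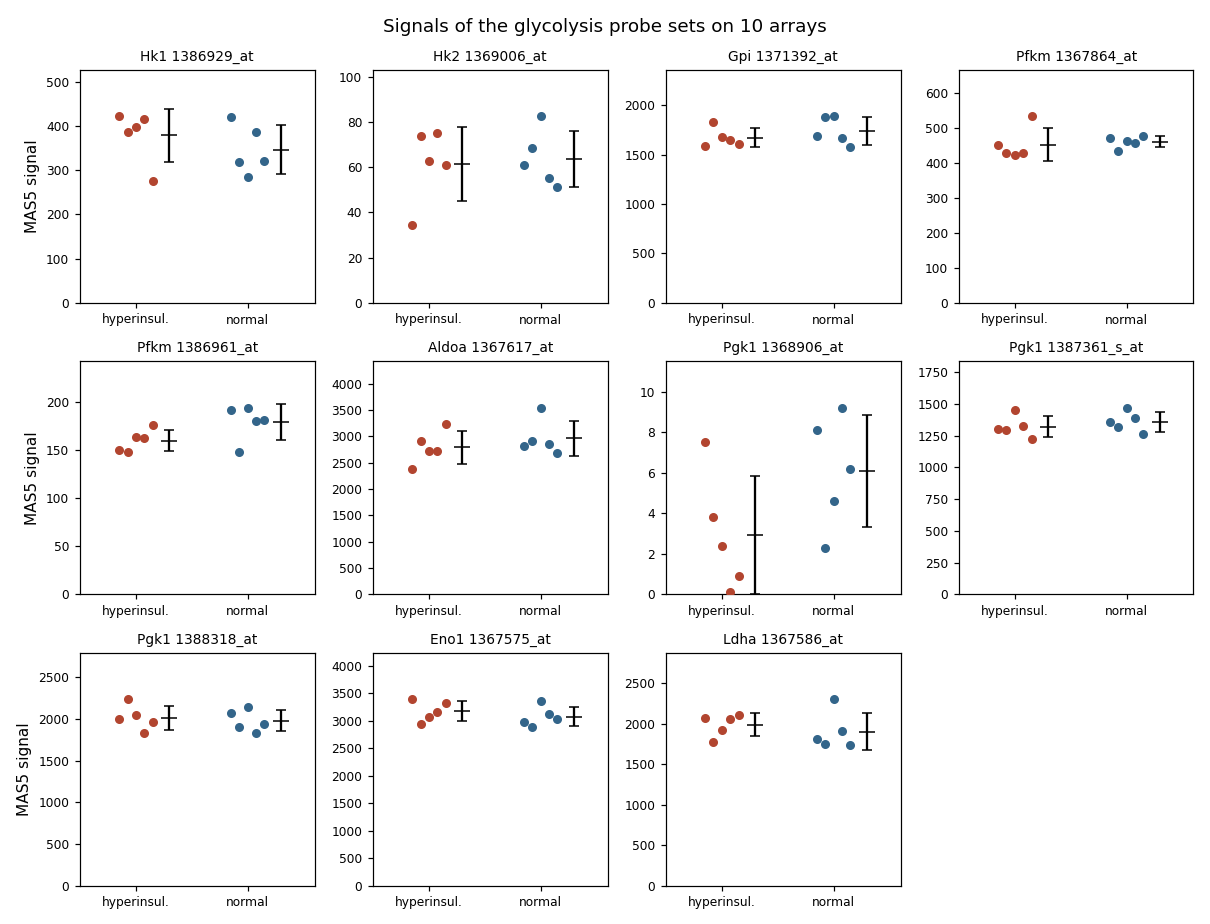
MAS5 signal (y axis, linear, from 0) of the 11 glycolysis probe sets on each array, with hyperinsulinemic arrays in red on the left and normal arrays in blue on the right of every panel. Points are single arrays and the black mark beside them is the mean with its SD (n = 5 each); the groups overlap in every panel.

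Hk1 encodes the hexokinase found in most tissues, which binds the outer mitochondrial membrane. Its signal, given here and below in the order of the replicate numbers, was 422, 385, 397, 415 and 275 on hyperinsulinemic arrays and 419.9, 318, 285, 386 and 321 on normal arrays. On the hyperinsulinemic side 4 arrays lay above the normal mean and replicate 10 lay below every normal array. Hk1 averaged 379 ± 60.0 in hyperinsulinemic kidneys and 346 ± 55.2 in normal kidneys (SD, n = 5 each), a log2 difference of 0.12 ± 0.12 (SE; limma, adjusted p = 0.973). That difference was 0.23 without hyperinsulinemic replicate 10 (limma, unadjusted p = 0.0354, adjusted p = 0.838) and 0.06 without normal replicate 3, and neither passed the test.

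Hk2, the insulin-responsive hexokinase of muscle and fat, was dim. It gave 34.5, 74.0, 63.0, 75.1 and 61.1 in the hyperinsulinemic group, against 61.1, 68.4, 82.6, 55.4 and 51.1 in normal kidneys. The lowest of the 10 values belonged to hyperinsulinemic replicate 6 and the highest to normal replicate 3. The log2 difference was -0.06 (exact two-sided permutation p = 0.802, n = 5 each), which lay well within the spread, and its sign turned when either of these arrays was left out, to 0.09 without hyperinsulinemic replicate 6 and to 0.02 without normal replicate 3. No difference was detected in this gene at these signals, and no interval was computed for it.

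Gpi encodes glucose-6-phosphate isomerase, which turns glucose phosphate into fructose phosphate. The hyperinsulinemic arrays read 1586, 1828, 1679, 1643 and 1608 and the normal arrays 1684, 1878, 1887, 1665 and 1576. Only hyperinsulinemic replicate 7 exceeded the normal mean, yet the 5 values stayed inside the normal range. The means were 1669 ± 95.6 and 1738 ± 138 for hyperinsulinemic and normal kidneys (SD, n = 5 each), and the log2 difference of -0.06 had a 95% interval of -0.19 to 0.08. It was -0.03 without normal replicate 2 or normal replicate 3, and -0.09 without normal replicate 5 or hyperinsulinemic replicate 7.

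Pfkm, the muscle-type phosphofructokinase that is also made in other tissues, had 2 probe sets, both listed under the same accession. The brighter of them, 1367864_at, gave 452, 428, 424, 429 and 535 in hyperinsulinemic kidneys and 473, 436, 465, 458 and 478 in normal kidneys. Hyperinsulinemic replicate 10 was the highest of all 10, and the other 4 hyperinsulinemic arrays lay below the normal mean of 462. The log2 difference was -0.03 ± 0.07 (SE; limma, adjusted p = 0.983), and it ran from -0.09 without hyperinsulinemic replicate 10 to -0.0079 without hyperinsulinemic replicate 8.

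On the second Pfkm probe set, 1386961_at, hyperinsulinemic signals were 150.3, 148, 164, 162 and 176, and normal signals were 192, 148, 194, 180.4 and 182. All 5 hyperinsulinemic arrays lay below the normal mean of 179, and the single normal array as low as these was replicate 2. This was the largest difference among the tested glycolysis probe sets, at a log2 value of -0.15 ± 0.08 (SE; limma, adjusted p = 0.941; 95% interval -0.32 to 0.03). Its p in limma was 0.102 before adjustment. The difference ran from -0.21 without normal replicate 2 (limma, unadjusted p = 0.0181, adjusted p = 0.996) to -0.12 without normal replicate 3. The correlation between the deviations of the 2 Pfkm probe sets from their group means did not pass after adjustment (Pearson r = 0.58, n = 10 arrays, exact permutation p = 0.0288, adjusted p = 0.115 over 4 such pairs of probe sets; Spearman rho = 0.62, p = 0.0684; r = 0.67 without the 2 arrays farthest from the median).

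Aldoa encodes the aldolase of muscle and of most fetal tissues, which splits fructose bisphosphate. Its signals were 2384, 2914, 2718, 2715 and 3233 on hyperinsulinemic arrays and 2813, 2916, 3543, 2855 and 2689 on normal arrays. Hyperinsulinemic replicate 6 was the lowest and normal replicate 3 the highest of the 10. The means were 2793 ± 311 in hyperinsulinemic kidneys and 2963 ± 335 in normal kidneys (SD, n = 5 each), a log2 difference of -0.09 ± 0.08 (SE; limma, adjusted p = 0.973). It was -0.02 without normal replicate 3, -0.03 without hyperinsulinemic replicate 6 and -0.14 without hyperinsulinemic replicate 10.

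Pgk1 encodes phosphoglycerate kinase, the first ATP-yielding enzyme of the pathway, and lies on the X chromosome. Probe set 1388318_at gave 1999, 2237, 2044, 1834 and 1967 in hyperinsulinemic kidneys and 2071, 1911, 2139, 1829.5 and 1943 in normal kidneys. Probe set 1387361_s_at gave 1302, 1292, 1449, 1326 and 1224 in hyperinsulinemic kidneys and 1359.5, 1317, 1469, 1391 and 1259 in normal kidneys. The groups overlapped in both, with log2 differences of 0.03 ± 0.06 and -0.04 ± 0.06 (SE; limma, adjusted p = 0.983 and 0.973). For 1388318_at the sign turned without normal replicate 4 (-0.0013) or hyperinsulinemic replicate 7 (-0.012). For 1387361_s_at the difference ran from -0.08 without hyperinsulinemic replicate 8 to -0.02 without normal replicate 3.

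The third Pgk1 probe set, 1368906_at, lay near the floor of the array on all 10, at 0.1 to 7.5 in hyperinsulinemic kidneys and 2.3 to 9.2 in normal kidneys. Its log2 difference was -0.23 with the constant of 16 that was added to every signal and -1.08 with a constant of 1 (exact two-sided permutation p = 0.127 and 0.111, n = 5 each). Without hyperinsulinemic replicate 6 it was -0.31 (exact permutation p = 0.0476). A value that depends so much on the added constant carries no fold, and the log2 differences of the other 2 probe sets of the gene are those given above. No correlation between the deviations of 2 Pgk1 probe sets passed the test (Pearson r = 0.07 to 0.23, exact permutation p = 0.543 to 0.861, adjusted p = 0.795 to 0.861).

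Eno1 encodes alpha-enolase, which makes phosphoenolpyruvate. Hyperinsulinemic arrays gave 3394, 2953, 3066, 3167 and 3330.3, and normal arrays gave 2987, 2896, 3370.2, 3125 and 3028. The 3 highest arrays were hyperinsulinemic replicates 6 and 10 and normal replicate 3. Eno1 averaged 3182 ± 182 in hyperinsulinemic kidneys and 3081 ± 181 in normal kidneys (SD, n = 5 each), a log2 difference of 0.05 ± 0.06 (SE; limma, adjusted p = 0.973). It was -2.683e-06 with quantile normalization, and it ran from 0.02 without hyperinsulinemic replicate 6 to 0.08 without normal replicate 3.

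Ldha encodes the lactate dehydrogenase subunit that favours lactate formation. It gave 2074, 1776, 1919, 2063 and 2113 in the hyperinsulinemic group, against 1818, 1756, 2302, 1911 and 1733 in normal kidneys. Normal replicate 3 was again the highest of all, while 4 of the 5 hyperinsulinemic arrays lay above the normal mean of 1904. The log2 difference was 0.07 ± 0.08 (SE; limma, adjusted p = 0.973; 95% interval -0.10 to 0.23), and it ran from 0.04 without normal replicate 5 to 0.14 without normal replicate 3. The latter had an unadjusted p of 0.0481 in limma and did not pass (adjusted p = 0.9996).

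**Figure D2:**
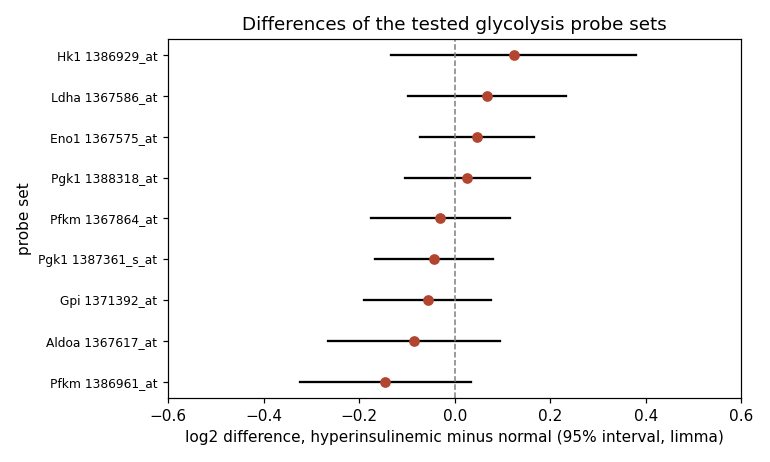
Fitted log2 difference (x axis, hyperinsulinemic minus normal) of the 9 tested glycolysis probe sets (y axis), with the 95% interval from limma as a line. Every interval crosses 0, from the Pfkm probe set at -0.15 to Hk1 at 0.12.

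The glycolysis probe sets varied between arrays of one group as follows. The within-group SD on the log2 scale was 0.083 to 0.231 over the 9 tested probe sets, with a median of 0.102, beside 0.129 over all tested probe sets. Of the 21 pairs formed by the 7 tested genes, each by its brightest probe set, 10 had a correlation of their within-group deviations above 0, and the median r was -0.01. One pair stood out: Eno1 and Ldha deviated together (Pearson r = 0.90, exact within-group permutation p = 0.00104, adjusted p = 0.0219 over the 21 pairs, n = 10 arrays; Spearman rho = 0.89, p = 0.00125, adjusted p = 0.0262). They lay on the same side of their group means on 9 of the 10 arrays. The correlation was 0.86 without hyperinsulinemic replicate 6 and normal replicate 3, the arrays removed because their Eno1 deviations were farthest from the median, and it was 0.91 within the hyperinsulinemic group and 0.94 within normal kidneys. All genes of an array share its scaling and its tissue sample, and the part of these in the correlation was not tested. Set against all 7266 other tested genes, Eno1 ranked 2 by its r with Ldha, a ranking looked up after the pair had been seen. Cadm1 (r = 0.92) ranked ahead of it and Znrd2 (r = 0.90) just behind, and neither is on a glycolysis list used here.

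Hk1 and Aldoa tended to deviate in opposite ways (Pearson r = -0.74, exact permutation p = 0.0287, adjusted p = 0.301; Spearman rho = -0.72, p = 0.0312, adjusted p = 0.219). This did not survive adjustment and rested on 2 arrays, since r was -0.16 without hyperinsulinemic replicate 10 and normal replicate 3. The mean standardised deviation of the 7 genes was highest in normal replicate 3, at 1.02, and between -0.55 and 0.37 elsewhere. The genes followed this mean unevenly, although each is part of it, with r at 0.80 for Ldha, 0.76 for Aldoa and 0.66 for Eno1. The r was 0.53 for Pgk1, 0.41 for Gpi, 0.36 for Pfkm and -0.44 for Hk1. Outside the list, the genes most like that mean over the 10 arrays were Atf4 (r = 0.98), Insig1 (0.94), Sf3a1 (0.94), Acp5 (0.90) and Homer1 (0.90). All of these lay closer to it than any of the 7 genes, which is a description of 10 arrays that share 1 high value.

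**Figure D3:**
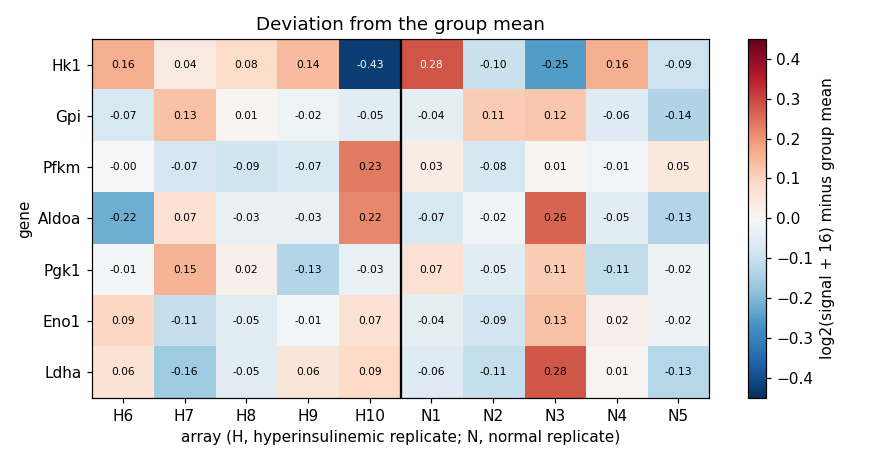
Deviation of log2(signal + 16) from the group mean (colour and printed value) for the brightest tested probe set of 7 glycolysis genes (rows) on each array (columns), hyperinsulinemic arrays on the left of the line and normal arrays on the right. Normal replicate 3 is raised for Ldha, Aldoa, Eno1, Gpi and Pgk1 and low for Hk1.

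**Figure D4:**
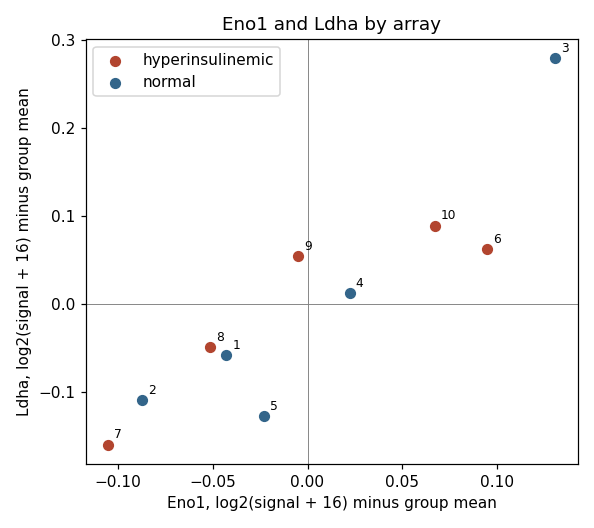
Within-group deviation of Ldha (y axis) against that of Eno1 (x axis), both in log2(signal + 16), for 5 hyperinsulinemic arrays in red and 5 normal arrays in blue, numbered by replicate. The points run along one diagonal in both groups, with normal replicate 3 at its upper end (Pearson r = 0.90, n = 10).

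The sequence before the start of Ldha and of Eno1 is shown because these are the enzymes whose signals varied together. The letters are RefSeq's on GRCr8, both from the plus strand, 250 bases ending just before the annotated start (for Eno1 the more upstream of 2 listed starts), at chr1:106507842-106508091 for Ldha and chr5:166002617-166002866 for Eno1. Capitals mark ACGTG, 1 form of the hypoxia-inducible factor core, read on either strand.
Ldha: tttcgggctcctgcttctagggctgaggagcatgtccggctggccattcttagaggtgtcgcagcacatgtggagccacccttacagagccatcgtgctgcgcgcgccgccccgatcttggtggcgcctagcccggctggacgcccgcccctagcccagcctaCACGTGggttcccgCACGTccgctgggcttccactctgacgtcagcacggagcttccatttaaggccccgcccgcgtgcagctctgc
Eno1: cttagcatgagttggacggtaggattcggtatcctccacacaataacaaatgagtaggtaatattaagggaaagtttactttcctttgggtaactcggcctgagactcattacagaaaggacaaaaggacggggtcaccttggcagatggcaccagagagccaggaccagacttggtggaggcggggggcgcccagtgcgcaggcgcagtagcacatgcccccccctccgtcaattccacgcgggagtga
The Ldha window held 3 matches, of which a pair overlap in the palindrome CACGTG, with first bases at -87, -86 and -73 from the start. The Eno1 window held 0. RefSeq listed 11 starts for 7 of the 8 genes, and Pgk1 had no entry. A match to ACGTG on either strand lay in 4 of these 11 windows (36.4%), those of Ldha, 1 of the Aldoa starts, 1 of the Hk1 starts and Pfkm, against 16.6% of 33469 windows of the same length over all listed starts. The GC box GGGCGG, read on either strand, lay in 5 of the 11 (45.5%), against 30.5% of all windows. A match describes these letters and not the binding of a factor.

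No difference was detected in the other tested enzymes of the pathway. Gapdh and Pkm are not reported, so their steps were read only through Gapdhs (log2 difference 0.11) and Pklr (-0.14). Of the 20 listed isoenzymes and remaining enzymes, 14 were on the array and 10 were tested, 5 higher and 5 lower, with a median log2 difference of -0.0003; 0 passed (limma, smallest adjusted p = 0.954) and 0 had an unadjusted p under 0.05. Named after their values were seen, because they fill the steps that the listed genes leave out, triose phosphate isomerase (Tpi1) averaged 2320 ± 107 and phosphoglycerate mutase (Pgam1) 2705 ± 163 in the hyperinsulinemic group, against 2288 ± 190 for Tpi1 and 2692 ± 61.7 for Pgam1 in normal kidneys (SD, n = 5 each). The log2 differences were 0.02 for Tpi1 and 0.01 for Pgam1. Ldhb, Pfkl and Pfkp, isoenzymes of listed genes, were also named after their values were seen. The log2 difference was 0.02 for the heart-type lactate dehydrogenase subunit Ldhb. It was -0.01 each for the liver and platelet phosphofructokinases Pfkl and Pfkp. The genes named this way lay near 0, whereas the 10 tested genes ran from -0.15 for Eno2 to 0.12 for Bpgm.

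Among glycolysis regulators 10 of 15 listed genes were tested, 2 higher and 8 lower, with a median of -0.07, and 0 passed. Txnip, which restrains glucose uptake and is induced by glucose, was the only member of the list with an unadjusted p under 0.05. Of all tested probe sets 5.36% had such a p in limma. Txnip gave 1309.6, 997, 853, 1329 and 1480.4 on hyperinsulinemic arrays and 1704, 1741, 1437, 1864 and 1631 on normal arrays. Only the normal array of replicate 3 lay within the hyperinsulinemic range, and the log2 difference was -0.51 ± 0.13 (SE; limma, unadjusted p = 0.00115, adjusted p = 0.54). The hypoxia-inducible factor subunit Hif1a, looked up after the values were seen, differed by -0.01 ± 0.05 on the log2 scale.

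For glucose and lactate transport 8 of 10 genes were tested, 3 higher and 5 lower, with a median of -0.11, and 0 passed (limma, smallest adjusted p = 0.87). Of the 8, 2 had a limma unadjusted p under 0.05, where 5.36% of all tested probe sets did. Slc5a2, the sodium-coupled glucose transporter of the early proximal tubule, gave 382, 367, 285, 391 and 362 in hyperinsulinemic kidneys and 354, 478, 458, 422 and 486 in normal kidneys, a log2 difference of -0.29 ± 0.10 (SE; limma, unadjusted p = 0.0104). Slc2a2, the facilitative transporter on the opposite side of the same cells, gave 469, 430.0, 478, 461 and 427 in hyperinsulinemic kidneys and 551, 521, 494, 457 and 524 in normal kidneys, a log2 difference of -0.16 ± 0.06 (SE; limma, unadjusted p = 0.0202). In both genes all 5 hyperinsulinemic arrays lay below the normal mean, and the groups overlapped through 1 low normal array, replicate 1 for Slc5a2 and replicate 4 for Slc2a2. Slc2a1, the basal glucose transporter, differed by 0.07 ± 0.11 (SE); it was chosen for mention after the values were seen.

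Downstream and side branches showed no call either. In pyruvate entry and dehydrogenase 12 of 14 genes were tested, 3 higher and 9 lower (median -0.04), and the pyruvate dehydrogenase kinase gene Pdk1, also named after the values were seen, differed by -0.03 ± 0.14. The pentose phosphate pathway had 6 of 7 genes tested, 4 higher and 2 lower (median 0.05). Glycogen and hexose side paths had 15 of 20 genes tested, 8 higher and 7 lower (median 0.0003). In these 3 lists 0 passed and 1 had a limma unadjusted p under 0.05, where 5.36% of all tested probe sets did. That gene was Gpd2, the mitochondrial glycerol phosphate dehydrogenase that passes cytosolic reducing equivalents to the respiratory chain. It gave 91.8, 121, 115, 126 and 93.3 on hyperinsulinemic arrays and 129.7, 114, 154, 122 and 131 on normal arrays, a log2 difference of -0.23 ± 0.10 (SE; limma, unadjusted p = 0.0428, adjusted p = 0.918).

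**Figure D5:**
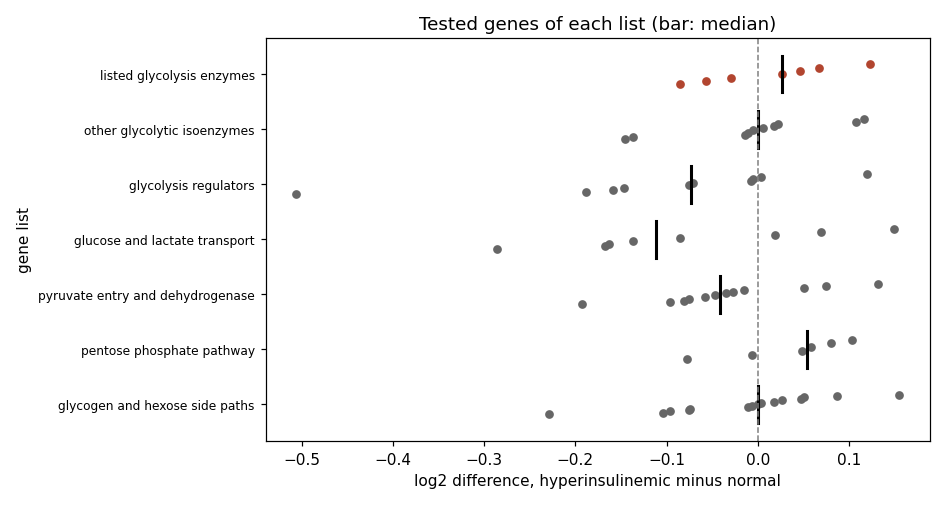
Log2 difference (x axis, hyperinsulinemic minus normal) of every tested gene in the listed glycolysis enzymes (red) and in 6 lists of linked genes (grey), with the median of each list as a black bar. Each gene is drawn by its brightest tested probe set, so Pfkm probe set 1386961_at, at -0.15, is not shown. Drawn this way, the 7 listed enzymes lie between -0.09 and 0.12, and the lowest gene of all is Txnip at -0.51.

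Markers of other cells that use glycolysis were read on the same arrays; in bulk tissue, fewer cells of a type and less RNA per cell cannot be told apart. The summed signal of 6 erythroid markers was 6065 to 8186 in hyperinsulinemic kidneys and 5141 to 6618 in normal kidneys, most of it Hbb, and all 6 had a higher hyperinsulinemic mean. Only 3 of the 6 reached the filter, and no tested erythroid marker passed. For Hbe2 the means were 31.6 in hyperinsulinemic and 31.4 in normal kidneys. Of 11 skeletal muscle markers 0 reached the filter, with sums of 279 to 371 in hyperinsulinemic kidneys and 267 to 322 in normal kidneys, and Myh3, Myh8 and Pgam2 were under a signal of 16 on every array. Leukocyte markers summed to 1431 to 1551 over 10 genes on hyperinsulinemic arrays and to 1332 to 1554.5 on normal arrays. Adipose markers summed to 150.3 to 194 over 5 genes on hyperinsulinemic arrays and to 141 to 229.6 on normal arrays, and 0 of them reached the filter. The part of these cells in the glycolysis signals was not tested.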

How the data were processed

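Total RNA of 10 fetal rat kidney samples was measured on 1-colour Affymetrix arrays, 1 array per sample. The deposited values were linear intensity values, and MAS5 is named per the submitters' processing notes (version and settings: not given in the sources used here). Each array's mean after trimming 2% at each end was 250, so the values were used as deposited. Symbols came from the platform annotation; all 11 probe sets matched the RefSeq table of GRCr8 by Entrez identifier with the same symbol. Of 15923 probe sets 12783 had 1 symbol, 312 several and 57 were controls.

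Values were taken as log2(signal + 16), so folds understate the change of dim genes. All 9601 tested probe sets were fitted together in R 4.3.3 by limma 3.58.1, using lmFit and then eBayes with its trend option; p-values were two-sided, adjusted by Benjamini-Hochberg over all tested probe sets, and called under 0.05. The 2 probe sets under the filter were compared by exact two-sided permutation of array labels, which for 5 against 5 cannot give a p below 0.00794. Correlations used deviations from group means and all 14400 reorderings of arrays within groups (Python 3.11.15, scipy 1.17.1). The fit was tested on simulated data. The number of arrays limits the precision.

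The members and gene lists were chosen with earlier results of these data known. Other genes were named when they passed and otherwise by the smallest unadjusted p under 0.05, up to 3 per list and direction; exceptions are stated. Alternatives covered the added constant, the filter, normalization, the variance model, array weights, the Gapdh control ratio, probe sets per gene, and leaving out arrays.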

Additional observations from a re-analysis of the deposited data

Results flagged for a closer look

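Among 46 sets of 5 arrays (the glycolysis probe sets and the other named genes, each in both groups), 4 had 1 array far from the rest by Dixon's criterion, where chance alone gives about 5% of sets. Hyperinsulinemic replicate 10 was low for Hk1, at 274.6 with the nearest array at 385, and high for Pfkm probe set 1367864_at, at 534.5 with the nearest at 452. Normal replicate 3 was high for Aldoa, at 3543.3 with the nearest at 2916. Hyperinsulinemic replicate 8 was low for Slc5a2, at 284.8 with the nearest at 362.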

How the results depend on the processing

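Over 10 alternatives and the omission of each of the 10 arrays in turn, 0 glycolysis probe sets were called in limma, the smallest adjusted p was 0.782, and the largest log2 difference in size among the 9 tested probe sets was 0.23. The median log2 difference of the 7 genes ran from -0.01 to 0.05 when each array was left out, and over the 11 alternatives tried for it, it moved by less than the spread between arrays. It turned negative with the mean of all tested probe sets of a gene (-0.0087) and with quantile normalization (-2.683e-06). It was also negative with no filter (-0.0019), a setting that adds Hk2 to the 7 genes. The count over all probe sets, 1 as reported, was 5 without a filter, 2 with arrays shifted to a common median, 0 without the intensity trend, 4 with array weights, 0 without the 2 arrays with the most Alb, and 0 to 4 when each array was left out; it was 4 with hyperinsulinemic replicate 6 left out, 2 with normal replicate 5 left out, and 0 with hyperinsulinemic replicate 7 or 9 or normal replicate 1, 2, 3 or 4 left out. Among single probe sets, signs turned in 3: Eno1 was -2.683e-06 with quantile normalization, Hk2 was 0.0535 without the 2 arrays with the most Alb and -0.123 to 0.0899 when each array was left out, and Pgk1 probe set 1388318_at was -0.0118 to 0.0593 when each array was left out. The cause was not tested. No paired analysis was possible because the groups share no replicate number. Covariates, weights and variance models were not run for the 2 probe sets compared by permutation. The number of arrays limits what could be seen: the widest 95% interval, that of Hk1, spans fold ratios of 0.912 to 1.30.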

Other observations

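Normal replicate 3 carried the highest signal of its group for 5 of the 7 tested glycolysis enzymes (Gpi, Aldoa, Pgk1, Eno1 and Ldha) and for 6 of the 10 other glycolytic enzymes (Pgam1, Tpi1, Pfkp, Adpgk, Pfkl and Eno2), while over all 7267 tested genes it was the highest normal array for 18.3%. In glucose and lactate transport it did not stand out, being highest for 2 of 8 genes (25.0%). Normal replicate 5 was highest for 3 of these 8 and normal replicate 4 for 2. The 2 genes of normal replicate 3 were the basal glucose transporter Slc2a1 and the lactate exporter Slc16a3. Slc2a1 read 591 on normal replicate 3, against 329 to 426 on the other normal arrays. Pdk1, which holds pyruvate back from the mitochondria, read 222 there, against 113 to 202. Txnip was at its lowest among normal arrays there, at 1437. Going the other way, the same array was the lowest of its group for Hk1, at 285, and for Ldhb, at 2653. Hif1a read 1069 there, inside the normal range of 1020 to 1136. The array and the single genes read on it were picked after their values were seen. The labels give nothing that sets the sample apart, and the cause was not tested.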
